A study of Homo sapiens with 6 samples.

Results

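Expression of 9 regulators of the interferon and JAK-STAT response was examined in triple-negative breast cancer (TNBC) cells, namely of the interferon regulatory factors IRF1, IRF2, IRF3, IRF7 and IRF9, the signal transducers STAT2 and STAT3, the kinase JAK1 and the signalling inhibitor SOCS3. They were chosen by name as regulators of the interferon response, and all 9 were found among the 15651 genes of the expression table. The cells were of MDA-MB-231, an established human line of TNBC, and gave 6 RNA sequencing libraries. The solvent DMSO alone was given in 3 of them, and the other 3 received BRL-50481, a small-molecule inhibitor of the cyclic AMP-degrading enzyme PDE7. The treatment protocol in the sample labels gives 50 µM for 72 h, whereas the treatment tag of the same samples gives 5 µM and 48 h. The study's own description of the experiment has the dose and duration of the protocol. The labels give no genetic change in either group, and all values come from 1 cultured tumour line without the immune cells that meet such a line in a tissue. The study names PDE7A as a target gene of IRF1, and the comparison asks how IRF1 and its neighbours in the pathway stand under a PDE7 inhibitor.

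Interferons and cytokines of the interleukin-6 family bind receptors that carry JAK kinases on their inner side, and the kinases phosphorylate STAT proteins, which then enter the nucleus. STAT2 joins IRF9 in the complex ISGF3 that switches on interferon-stimulated genes, while STAT3 carries signals of cytokines that share the receptor gp130. IRF3 and IRF7 respond to foreign nucleic acid and switch on interferon genes, IRF1 and IRF2 compete for the same DNA element as activator and antagonist, and SOCS3 is a feedback inhibitor that blocks JAK1 at the gp130 receptor. In epithelial cells most of these regulators are present before any stimulus, and much of their control lies in phosphorylation, which RNA sequencing does not measure.

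The libraries held 30750573 to 33446984 reads on genes, recovered from the deposited normalized counts, which are read counts divided by a size factor of each library. Replicates differed by more than counting noise, as the chi-square over its degrees of freedom was 3.86 to 20.9 for pairs of DMSO libraries and 2.58 to 3.42 for pairs of treated ones. DMSO replicate 1 stood apart from its group, and it was the DMSO library nearest to the BRL-50481 mean in 51.8% of the genes that differed between the groups. The markers of a mesenchymal breast line were abundant in every library, with a summed normalized count of VIM, CD44, MSN, AXL and FOSL1 of 179087 to 183060 in controls and 230128 to 233887 in treated libraries. The hormone receptor gene PGR was below the filter on low values, and ERBB2 was at 1677 ± 75.5 and 1914 ± 59.1 normalized counts (SD, 3 libraries each). Of 6 leukocyte markers 2 could be tested, with a summed level of 402 to 510 in controls and 462 to 542 in treated libraries, nearly all of it CD14. Of 6 fibroblast markers 4 could be tested (602 to 656 and 732 to 841 summed), and of 3 endothelial markers 2 (326 to 396 and 465 to 552). The other markers of these lists, among them PTPRC, DCN and VWF, were not analysed here, and the part of such markers in the results below was not tested.

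With BRL-50481, 4 of the 5 IRF genes and SOCS3 were lower, JAK1 was higher, and IRF9, STAT2 and STAT3 did not pass the test. IRF3 had the largest difference, a change of the mean by -41.2%, followed by SOCS3 at -32.7%, IRF7 at -26.6%, IRF1 at -15.2% and IRF2 at -11.4%, while JAK1 was higher by 14.7%. The test was limma on log2-transformed normalized counts (pseudocount 1), over the 15246 genes with normalized counts of 4 or more in 3 or more libraries, and a gene was called at a Benjamini-Hochberg adjusted p under 0.05 over all of them. By this rule 6 of the 9 regulators (66.7%) were called, where 58.7% of all genes tested were, so that the share alone does not set the regulators apart from the table. The 5 that were lower compare with 29.8% of all genes called lower, and the 1 that was higher with 28.9% called higher. For 7 of the 9 regulators (77.8%) the treated libraries did not overlap with the controls, against 64.2% of all genes. The median log2 fold change was -0.17 over the 9 regulators and 0.015 over all genes tested. In these bulk libraries a smaller number of cells expressing a gene and less RNA of it per cell cannot be told apart.

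**Figure D1:**
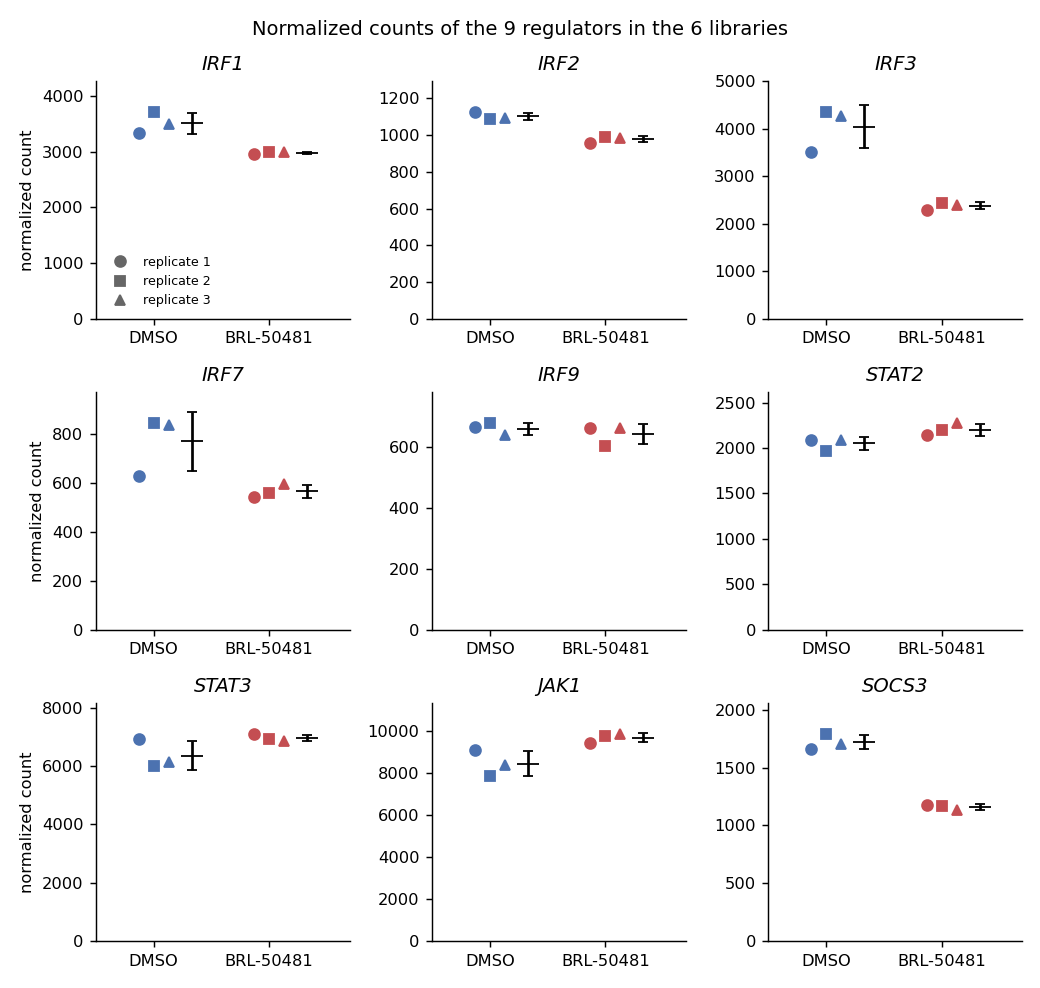
Normalized count (vertical axes, from 0) of each of the 9 regulators in the 3 DMSO libraries (blue) and the 3 BRL-50481 libraries (red), with the mean and SD of each group in black. IRF3 fell from 4046 to 2380 and SOCS3 from 1721 to 1158 without overlap, while the groups overlap for IRF9 and STAT3.

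IRF1, the activator of antiviral and antigen presentation genes, lies on the minus strand of chromosome 5 (chr5:132440440-132508719 of hg38). Its normalized counts were 3334, 3717 and 3495 in DMSO replicates 1 to 3 and 2958, 2993 and 2992 in BRL-50481 replicates 1 to 3. The 3 treated libraries lay within a narrow band below the lowest DMSO library, which was replicate 1. The means were 3515 ± 192 and 2981 ± 20.01 (SD, 3 libraries each), a log2 fold change of -0.24 (SE 0.0533, 95% interval -0.35 to -0.12, limma adjusted p = 0.0019). IRF1 was called without each library in turn, at -0.27 to -0.20. The gene shares 22.9% of its exon bases with the antisense gene IRF1-AS1 on the other strand, and the authors' counting was set to be strand-specific. The exact permutation test over 3 against 3 libraries cannot give less than 0.1, and gave 0.1 for each of the 7 regulators without overlap.

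PDE7A, which encodes the enzyme that BRL-50481 inhibits, had normalized counts of 406, 405 and 409 in DMSO and 341, 292 and 261 in BRL-50481. It was thus lower in every treated library, at 406 ± 2.06 and 298 ± 40.6 (SD, 3 libraries each), a log2 fold change of -0.45 (SE 0.103, limma adjusted p = 0.00199). Both IRF1 and PDE7A fell, PDE7A by the larger log2 amount, with 95% intervals of -0.35 to -0.12 and -0.68 to -0.23 that overlap. The difference between the fold changes was not tested.

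Promoter sequences from RefSeq on GRCh38.p14, from 250 bases before to 50 bases after a start site, were found for 6 of the 9 regulators (IRF1, IRF9, STAT2, STAT3, JAK1 and SOCS3), 9 promoters in all. They were searched on both strands for TTCNNNGAA, the gamma-activated site to which STAT dimers bind, for GAAANNGAA, a core of the element to which IRFs and ISGF3 bind, and for TGACGTCA, the cyclic AMP response element, whose letters do not overlap with the others. Only the promoters of IRF1 and IRF9 held TTCNNNGAA, which 7.66% of 35116 promoters of this length hold. The 2 windows of SOCS3, chr17:78359618-78359917 and chr17:78360876-78361175, do not cover 78360077, where its GENCODE position begins on the minus strand. The window of IRF1, chr5:132490724-132491023, likewise does not cover 132508719, where the GENCODE position of IRF1 begins on the minus strand. The bases just before these points were therefore not searched, and a motif there is neither shown nor excluded. The other 2 motifs (8.11% and 1.85% of all promoters) had no match in these windows. The windows with the match are shown because they place 2 regulators with the same element and different values side by side, IRF1 lower after treatment and IRF9 not past the test, and capitals mark the match.
IRF1, chr5:132490834-132490953, minus strand, positions -180 to -61 from the start site: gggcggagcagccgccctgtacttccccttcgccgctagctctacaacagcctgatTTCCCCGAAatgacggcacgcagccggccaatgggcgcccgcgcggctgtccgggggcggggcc
IRF9, chr14:24161146-24161264, plus strand, positions -119 to -1 from the start site: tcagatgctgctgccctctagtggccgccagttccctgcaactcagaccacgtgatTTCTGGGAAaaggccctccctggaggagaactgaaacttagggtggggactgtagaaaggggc
The match begins at position -124 in IRF1 and at -63 in IRF9, and it is a match of letters, not a measured binding site.

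IRF2 (chr4:184385702-184474558, minus strand), which binds the same element as IRF1 and mostly represses, had normalized counts of 1126, 1090 and 1092 in DMSO and 958, 991 and 982 in BRL-50481. All treated libraries were below all controls. The means were 1103 ± 20.3 and 977 ± 16.9 (SD, 3 libraries each), a log2 fold change of -0.17 (SE 0.060, 95% interval -0.30 to -0.045, limma adjusted p = 0.0233). This call was the least firm of the 5 falls, since it was lost with quantile normalization (-0.13, limma adjusted p = 0.0803), with median centring (-0.14, limma adjusted p = 0.0555) and without DMSO replicate 3 or any one of the BRL-50481 replicates (limma adjusted p of 0.0521 to 0.0780). The log2 ratio of IRF1 to IRF2 within a library was 1.67 ± 0.10 in DMSO and 1.61 ± 0.016 in BRL-50481 (SD, 3 libraries each), and the groups overlapped. Activator and antagonist were thus both lower, and the exact permutation test of their ratio, two-sided and 1 of 5 ratios tested, gave p = 0.4 (adjusted 0.4).

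IRF3 (chr19:49659569-49665875, minus strand), the constitutively made factor that sensors of viral nucleic acid activate, had normalized counts of 3521, 4353 and 4265 in DMSO and 2293, 2446 and 2400 in BRL-50481. Every treated library was below every control, with DMSO replicate 1 between the other controls and the treated libraries. The means were 4046 ± 457 and 2380 ± 78.2 (SD, 3 libraries each), a log2 fold change of -0.76 (SE 0.0733, 95% interval -0.92 to -0.60, limma adjusted p = 1.71e-06). Only 6.46% of all genes tested had a lower log2 fold change. IRF3 kept its call without each library in turn, at -0.86 to -0.70. It shares 19.3% of its exon bases with BCL2L12 on the other strand.

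IRF7 (chr11:612553-615983, minus strand), the interferon-inducible relative of IRF3 that amplifies interferon production, had normalized counts of 629, 844 and 836 in DMSO and 543, 557 and 596 in BRL-50481. DMSO replicate 1 lay closer to the treated libraries than to the other controls, and the groups did not overlap. The means were 770 ± 122 and 565 ± 27.7 (SD, 3 libraries each), a log2 fold change of -0.43 (SE 0.104, 95% interval -0.66 to -0.21, limma adjusted p = 0.00304). It was called without each library in turn, at -0.57 to -0.36. The DMSO libraries had a coefficient of variation of 15.8% for IRF7, the highest of any regulator in either group, against 3.86% from counting alone.

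Both factors fell, IRF3 further than IRF7. The log2 ratio of IRF7 to IRF3 within a library was -2.48, -2.36 and -2.35 in DMSO and -2.08, -2.13 and -2.01 in BRL-50481. The ratio was higher in every treated library, by 0.33 on the log2 scale, with an exact permutation p of 0.1, the smallest this design allows (adjusted 0.167 over the 5 ratios). A ratio within a library does not depend on the size factor of that library.

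IRF9 (chr14:24161234-24168043, plus strand), the DNA-binding part of ISGF3, had normalized counts of 664, 678 and 638 in DMSO and 660, 604 and 662 in BRL-50481. The groups overlapped, and only BRL-50481 replicate 2 was below all controls. The means were 660 ± 19.99 and 642 ± 32.8 (SD, 3 libraries each), a log2 fold change of -0.04 (SE 0.0726, 95% interval -0.20 to 0.12, limma adjusted p = 0.656). A fall of up to 0.20 or a rise of up to 0.12 on the log2 scale therefore lies within the interval. Its exons share 23.9% of their bases with an annotated protein-coding gene on the same strand, ENSG00000259529, so its counts are uncertain. That figure is a share of bases and not of reads, and the effect of the overlap on the counts was not tested.

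STAT2 (chr12:56341597-56360203, minus strand), the partner of IRF9 in ISGF3, had normalized counts of 2092, 1973 and 2089 in DMSO and 2140, 2194 and 2274 in BRL-50481. Each treated library was above each control, by a margin close to the spread between replicates. The means were 2051 ± 67.8 and 2203 ± 67.3 (SD, 3 libraries each), a log2 fold change of 0.10 (SE 0.0544, 95% interval -0.015 to 0.22, limma adjusted p = 0.122). STAT2 thus did not pass the test, though it did with quantile normalization (0.17, limma adjusted p = 0.0161), with median centring (0.13, limma adjusted p = 0.0490) and without DMSO replicate 1 (0.12, limma adjusted p = 0.0384). The log2 ratio of IRF9 to STAT2 was -1.63 ± 0.086 in DMSO and -1.78 ± 0.082 in BRL-50481 (SD, 3 libraries each), with overlapping groups and an exact permutation p of 0.2 (adjusted 0.25).

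STAT3 (chr17:42313324-42388540, minus strand), the main STAT of gp130 cytokines, had normalized counts of 6936, 6010 and 6146 in DMSO and 7096, 6926 and 6880 in BRL-50481. DMSO replicate 1 lay within the range of the treated libraries, and the other controls lay below it. The means were 6364 ± 500 and 6967 ± 114 (SD, 3 libraries each), a log2 fold change of 0.13 (SE 0.0564, 95% interval 0.012 to 0.26, limma adjusted p = 0.0570). The call depended on 1 library and on the processing. Without DMSO replicate 1 the log2 fold change was 0.20 with a limma adjusted p of 2.12e-05. STAT3 also passed with quantile normalization (0.18, limma adjusted p = 0.0142) and median centring (0.16, limma adjusted p = 0.0249), and not with a correction for transcript length and GC content (0.023, limma adjusted p = 0.562).

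JAK1 (chr1:64833223-65067754, minus strand), the kinase shared by interferon and gp130 receptors, had normalized counts of 9073, 7868 and 8373 in DMSO and 9428, 9764 and 9842 in BRL-50481. All treated libraries were above all controls, with DMSO replicate 1 the nearest to them. The means were 8438 ± 605 and 9678 ± 220 (SD, 3 libraries each), a log2 fold change of 0.20 (SE 0.0544, 95% interval 0.082 to 0.32, limma adjusted p = 0.00652). JAK1 was called without each library in turn, at 0.15 to 0.25. The size of this rise depended on the processing, as it was 0.079 after the correction for transcript length and GC content (limma adjusted p = 0.0309), and limma without a mean-variance trend gave an adjusted p of 0.0501.

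SOCS3 (chr17:78356778-78360077, minus strand), which STAT3 induces and which then inhibits JAK1 at gp130, had normalized counts of 1665, 1789 and 1709 in DMSO and 1177, 1165 and 1132 in BRL-50481. The 3 treated libraries were close together and far below the lowest control. The means were 1721 ± 62.7 and 1158 ± 23.2 (SD, 3 libraries each), a log2 fold change of -0.57 (SE 0.0579, 95% interval -0.70 to -0.45, limma adjusted p = 2.67e-06). Its log2 fold change stayed between -0.59 and -0.53, and called, under all 18 alternatives tried.

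SOCS3 thus fell, whereas its target JAK1 rose and its inducer STAT3 did not pass the test. The log2 ratio of SOCS3 to STAT3 was -2.06, -1.75 and -1.85 in DMSO and -2.59, -2.57 and -2.60 in BRL-50481, a difference of -0.70. The log2 ratio of SOCS3 to JAK1 was -2.45, -2.14 and -2.29 in DMSO and -3.00, -3.07 and -3.12 in BRL-50481, a difference of -0.77. Neither ratio overlapped between the groups, and each had an exact permutation p of 0.1, the smallest the design allows (adjusted 0.167 over the 5 ratios). These differences lay between -0.79 and -0.64 and between -0.85 and -0.69 with other pseudocounts and without each library. The correction for transcript length and GC content was not applied to the ratios. For the single genes it gave log2 fold changes of -0.54 for SOCS3, 0.023 for STAT3 and 0.079 for JAK1, so these ranges do not cover its effect.

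**Figure D2:**
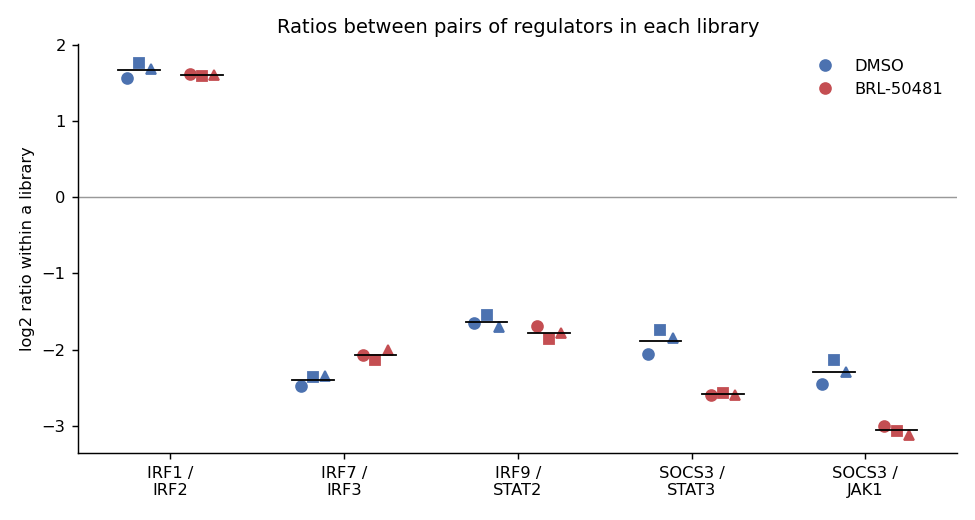
Log2 ratio of 2 regulators within each library (vertical axis) for 5 pairs, DMSO in blue and BRL-50481 in red, with replicate 1 as a circle, 2 as a square and 3 as a triangle and a line at the mean of each group. The ratios of SOCS3 to STAT3 and to JAK1 fell by 0.70 and 0.77 without overlap, IRF7 over IRF3 was higher by 0.33, and the groups overlap for IRF1 over IRF2 and IRF9 over STAT2.

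Levels were compared between genes as normalized counts per kilobase of the canonical transcript. In DMSO the order of the mean levels was IRF3 (2537 per kilobase), JAK1 (1657), STAT3 (1293), IRF1 (989), SOCS3 (629), IRF2 (489), STAT2 (466), IRF9 (406) and IRF7 (400). The ranges of neighbours in this order did not overlap, except for IRF9 and IRF7. In BRL-50481 the order was JAK1 (1901 per kilobase), IRF3 (1492), STAT3 (1416), IRF1 (839), STAT2 (500), IRF2 (433), SOCS3 (424), IRF9 (395) and IRF7 (294). The ranges of IRF3 and STAT3 overlapped in the treated libraries, as did those of IRF2 and SOCS3, so these neighbours did not differ beyond their spread. IRF7 had the lowest mean level in both groups, and it was still above 59.8% of all genes with a length when averaged over the 6 libraries. IRF3 was above 91.7% of them on the same scale.

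The regulators also differed in how far replicates spread. The coefficient of variation between replicates ran from 0.671% (IRF1 in BRL-50481) to 15.8% (IRF7 in DMSO). Counting alone gives 1.05% for JAK1 and 3.91% for IRF9, the extremes of the 9. For IRF1 counting alone gives 1.75%, so its 3 treated libraries lay closer together than counting noise, and that closeness is not shown to be a trait of the gene. For 7 of the 9 regulators, and 5 of the 6 called, DMSO replicate 1 was the control nearest to the treated mean. Without it the log2 fold changes were -0.86 for IRF3, -0.59 for SOCS3, -0.57 for IRF7, -0.27 for IRF1, -0.16 for IRF2, -0.04 for IRF9, 0.12 for STAT2, 0.20 for STAT3 and 0.25 for JAK1. The number of regulators called higher then was 3 in place of 1, by the addition of STAT2 and STAT3, and the number called lower stayed at 5. The 6 called regulators kept their calls without this library.

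**Figure D3:**
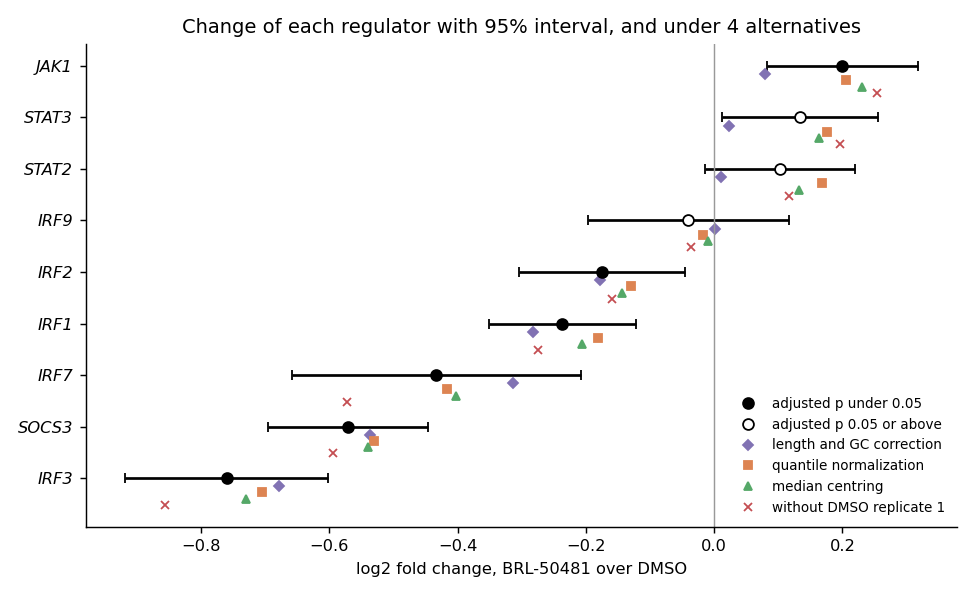
Log2 fold change of BRL-50481 over DMSO (horizontal axis) for the 9 regulators, with the 95% interval of the limma fit (filled circle, adjusted p under 0.05) and the value under 4 alternatives in colour. IRF3, SOCS3, IRF7, IRF1 and IRF2 lie below 0 under each alternative shown, and JAK1 falls from 0.20 to 0.079 with the correction for length and GC content.

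Length and GC content of the canonical transcripts went with the differences in part. The 3 regulators with the largest falls had the highest GC content of the 9, with 61.3% in IRF3, 60.0% in SOCS3 and 66.6% in IRF7, and canonical transcripts of 1595, 2734 and 1923 bases. JAK1, STAT3 and STAT2, whose fitted values lay above 0, had the longest ones, with 5092, 4921 and 4405 bases and a GC content of 46.4%, 50.0% and 50.7%. IRF2 departed from this order, since it was called lower with the lowest GC content of the 9 (45.2%, 2257 bases), and so did IRF9, which did not pass the test with a short transcript (1626 bases, 54.7%). IRF1 lay between them, with 3554 bases and 53.0%. Over 14738 genes with both properties, Spearman's rho of the log2 fold change was 0.175 with transcript length and -0.0775 with GC content, as a description across genes, which share the same 6 libraries. When each library was corrected for its trend on both, the log2 fold changes were -0.68 for IRF3, -0.54 for SOCS3, -0.31 for IRF7, -0.28 for IRF1 and -0.18 for IRF2, and all 5 were called. Under the same correction they were 0.079 for JAK1, 0.023 for STAT3, 0.011 for STAT2 and 0.00093 for IRF9.

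Genes whose pattern was most like that of a regulator were ranked by the root mean square difference of log2 values, each gene centred on its own mean, over the 6 libraries and among 11455 genes whose normalized counts averaged 100 or more. Nearest to IRF1 were HNRNPUL2 (0.00869), ST20 (0.0110) and NUTF2 (0.0149), and nearest to IRF3, the regulator with the largest difference, were CDC34 (0.0354), CDKN1C (0.0363) and SLC3A2 (0.0364). HNRNPUL2 had means of 1956 and 1661 normalized counts and CDC34 of 4610 and 2598 in DMSO and BRL-50481, which are falls of -0.23 and -0.82 as log2 fold changes.

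The other genes of the pathway follow, with log2 fold changes in parentheses, and each gene said to be higher or lower had a limma adjusted p under 0.05. Of 12 other IRF, STAT and JAK genes 10 were tested, of which 5 were higher and 2 lower, and the median of their log2 fold changes was 0.32. The share called was 70.0%, against the 58.7% of all genes tested. STAT6, the interleukin-4 STAT, rose from 2453 ± 37.2 to 4142 ± 169 normalized counts (SD, 3 libraries each), a log2 fold change of 0.75. IRF5 fell from 243 ± 25.1 to 132 ± 4.61 (-0.87) and STAT5B from 2691 ± 67.3 to 2030 ± 145 (-0.41), so that falls among IRF genes reached beyond the 9. JAK2 (0.44), a kinase of the same family as JAK1, was higher, and its call held in 3 of the 6 fits without a library and was lost with the correction for length and GC content (0.26, limma adjusted p = 0.0833). IRF4 and IRF8 were not analysed here. Of 5 partners of IRFs, the coactivators EP300 (0.44) and CREBBP (0.24) and the corepressor family gene IRF2BPL (0.24) were higher and the IRF2 corepressor IRF2BP1 was lower (-0.61). The correction for length and GC content took CREBBP to 0.015 (limma adjusted p = 0.760) and EP300 to 0.23 (limma adjusted p = 0.000925).

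Upstream of the regulators, receptor subunits went both ways, with 5 of 16 higher, 4 lower and a median of -0.036. The share called, 56.25%, was near the 58.7% of all genes tested. IL6ST, the gene of gp130, the receptor at which JAK1 and SOCS3 meet, rose from 17501 ± 2772 to 24429 ± 675 normalized counts (SD, 3 libraries each, log2 fold change 0.49), whereas IL6R, the subunit that binds interleukin-6, fell from 271 ± 22.8 to 101 ± 8.98 (-1.42). IL6ST was at 0.26 after the correction for length and GC content (limma adjusted p = 1.43e-06). Of 15 interferon and gp130 cytokine genes 5 were tested, all of them gp130 cytokines, and all passed the test. CTF1 (1.19), LIF (0.71) and IL6 (0.54) were higher, IL11 (-0.71) and CLCF1 (-0.21) were lower, and CLCF1 kept its call in 2 of the 6 fits without a library. The interferon genes on that list were not analysed here.

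Between nucleic acid sensing and IRF3 or IRF7, 9 of 18 genes were higher and 5 lower, with a median of 0.11, and 77.8% were called against 58.7% of all genes. With the correction for length and GC content 7 were higher and 7 lower. The RNA sensors DHX58 (1.30) and DDX58, which encodes RIG-I (1.03), and the kinase gene IKBKE (1.11), whose product phosphorylates IRF3 and IRF7, were higher. IKBKE rose from 704 ± 45.4 to 1519 ± 106 normalized counts (SD, 3 libraries each), while IRF3, its substrate, fell. The DNA sensor gene MB21D1, which encodes cGAS, fell from 2753 ± 93.8 to 1483 ± 67.5 (-0.89), and IRAK1 (-0.44) and TRAF6 (-0.35), which signal from Toll-like receptors to IRF7, also fell. Among 17 other brakes on JAK-STAT signalling 3 were higher and 5 lower, with a median of -0.0054, and 47.1% were called against 58.7% of all genes. CISH (-1.58), SOCS2 (-0.37) and PIAS4 (-0.32) fell as SOCS3 did, and SOCS6 (0.38) and the phosphatase gene PTPN6 (0.67) rose. The same correction took SOCS6 to 0.24 and TRAF6 to -0.55, and both kept their calls.

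Downstream of the regulators, 3 lists of target genes were counted. Of 31 interferon-stimulated genes tested 19 were higher and 5 lower, 77.4% called against 58.7% of all genes, with a median of 0.50, beside an IRF9 level that did not pass the test and a STAT2 level at 0.10. DDX60 (2.21), OASL (2.04) and IFI44 (1.60) rose, and IFITM1 (-0.35), IFITM3 (-0.32) and UBE2L6 (-0.26) fell. Of 18 genes induced through IRF1, PDE7A among them, 7 were higher and 4 lower, 61.1% called, with a median of 0.080, while IRF1 itself was lower. TNFSF10 (0.77), GBP1 (0.67) and CIITA (0.66, or 0.33 with the correction) rose, and PDE7A (-0.45) and TAP2 (-0.40) fell. Of 21 STAT3 target genes 7 were higher and 8 lower, 71.4% called, with a median of -0.048. LRG1 (1.01), BIRC5 (0.68) and MCL1 (0.65) rose, and FOS (-1.44), MYC (-1.17) and CCND1 (-0.72) fell, beside SOCS3, which STAT3 also induces. The lists are described by these counts and were not tested as sets.

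**Figure D4:**
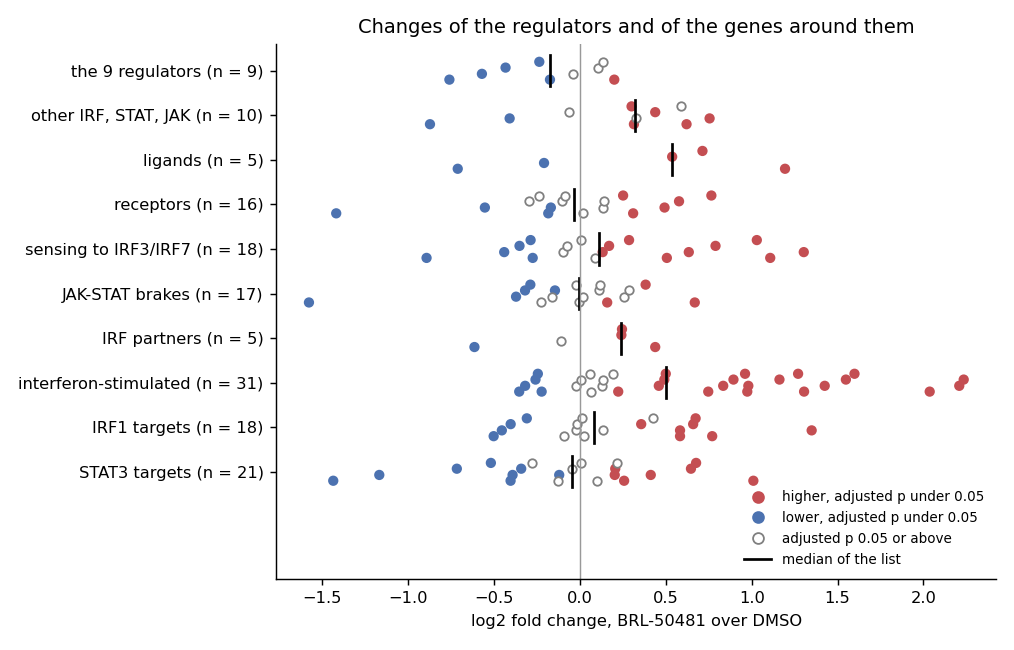
Log2 fold change of BRL-50481 over DMSO (horizontal axis) for each tested gene of the 9 regulators and of 9 lists around them, red when higher and blue when lower at an adjusted p under 0.05, white otherwise, with a black line at the median of each list. The median is -0.17 for the regulators, 0.32 for the other family genes and 0.50 for the interferon-stimulated genes.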

How the data were processed

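RNA sequencing of 3 DMSO and 3 BRL-50481 libraries was analysed, grouped and numbered by the sample labels. The study describes the replicates as biological. The libraries were labelled as strand-specific and oligo-dT selected, while the series record names ribosomal RNA depletion. The authors aligned reads to hg38 with STAR 2.7.1a, assigned them to genes of a UCSC annotation by htseq-count (reverse strand), and normalized the counts with DESeq2 1.28. The deposited signal is a normalized count, the reads of a gene over the size factor of its library. The authors also deposited columns of their own comparison (a mean over libraries, log2 fold changes with standard errors, and p-values), which were not used. All per-sample columns were used. Of the 93906 values, 100% came out as whole reads (tolerance 0.01 read), so reads were recovered by division, and depth limits each value to that counting error.

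In R 4.3.3, limma 3.58.1 (lmFit, eBayes with trend) was fitted to log2 of the normalized count with a pseudocount of 1, so fold changes are on that scale, for genes with at least 4 in at least 3 libraries (15246 of 15651). edgeR 4.0.16 and DESeq2 1.42.0 were run on the recovered reads as alternatives. The fits were tested on simulated counts. Other alternatives were a pseudocount of 0.5 or 4, no filter or a mean of 20 or more, quantile normalization, median centring, no trend, a replicate block, a loess correction (span 0.5) for length and GC content, and each library left out. Ratios were compared by two-sided exact permutation tests over 6 libraries. Lengths, positions and overlaps came from GENCODE on hg38, which matched 96.5% of the table (14216 genes by symbol and 891 by an older one). The UCSC annotation of the authors was not used here. Figures were drawn with matplotlib 3.10.9.

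The regulators and gene lists were chosen with earlier results of these data known. Genes were named by 1 rule: every regulator, PDE7A, the cell line markers, the 3 genes most like IRF1 and the 3 most like the regulator with the largest change, and in each list up to 3 called genes in each direction whose mean was 50 or more. Not all genes that the rule allows are named, and some are not reported here.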

Additional observations from a re-analysis of the deposited data

How the results depend on the processing

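Of 517 values recomputed under an alternative, 458 held. For a fold change this means the same direction and side of the threshold, for a count or list median a small move, and for a ratio the direction alone. IRF1, IRF3, IRF7 and SOCS3 kept their direction and their call under all 18 alternatives. IRF2 was lost with quantile normalization (-0.13) and median centring (-0.14) and ran from -0.18 to -0.16 without each library. IRF9, never called, changed sign to 0.00093 with the length and GC correction, with or without the replicate block, and to 0.0030 without BRL-50481 replicate 2 (-0.064 to 0.0030 over the libraries left out). STAT2 passed with quantile normalization (0.17) and median centring (0.13), and was 0.075 to 0.12 without each library. STAT3 passed with both (0.18 and 0.16), and was 0.094 to 0.20 without each library. JAK1 was lost without the trend (0.20). The count of regulators called higher was 3 with quantile normalization, 3 with median centring, 0 without the trend, 2 with the replicate block and 1 to 3 without each library. The causes were not tested.

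Deviations of same-numbered libraries correlated at 0.121, 0.104 and 0.0514 over 12251 genes. Each DMSO library correlated best with the BRL-50481 library of its number. BRL-50481 replicates 1 and 2 likewise correlated best with the DMSO library of their number, but BRL-50481 replicate 3 did so with DMSO replicate 2. The numbers are thus not shown to pair all libraries. The replicate block gave 9029 called genes in place of 8946, and STAT3 passed under it (0.13, limma adjusted p = 0.0339).

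With the length and GC correction the list medians were 0.25 for the other family genes, 0.015 for IRF partners, -0.16 for receptors, -0.00085 for sensing genes, -0.16 for brakes, 0.58 for interferon-stimulated genes and 0.14 for IRF1 targets, with 2 partners, 7 receptors and 8 brakes lower. With quantile normalization the partners' median was 0.30 and that of sensing genes 0.17, 3 other family genes were higher and 1 ligand was lower, as was 1 ligand with median centring. Without each library in turn, medians were 0.26 to 0.37 for the other family genes (3 to 5 higher), 0.18 to 0.25 for partners (1 to 2 lower), 0.084 to 0.15 for sensing genes, -0.082 to 0.015 for brakes, 0.50 to 0.57 for interferon-stimulated genes, 0.11 to 0.20 for IRF1 targets and -0.14 to 0.0072 for STAT3 targets, with 2 to 4 receptors and 1 to 2 ligands lower. The counts were lowest without DMSO replicate 2 or BRL-50481 replicate 1 (3 other family genes higher), without DMSO replicate 3 or BRL-50481 replicate 2 or 3 (2 receptors lower), and without DMSO replicate 2 or 3 or BRL-50481 replicate 1 or 3 (1 ligand lower). Without DMSO replicate 1, 2 partners were lower. The brake median was lowest without DMSO replicate 2, the IRF1 target median was highest without BRL-50481 replicate 2, and the STAT3 target median was lowest without DMSO replicate 1.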
